A study of Mus musculus with 12 samples.

Results

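The genes described here are Hsd11b1, which encodes the enzyme that regenerates active glucocorticoid inside cells, and 9 genes around it: H6pd, Nr3c1, Fkbp5, Tsc22d3, Zbtb16, Sgk1, Per1, Mt1 and Mt2. They were chosen by the gene symbol of the array platform, which names 23 of the 45101 probe sets with these 10 symbols, out of 18194 genes measured. All 10 were found, with 6 probe sets for Nr3c1, 4 for Tsc22d3, 3 each for Fkbp5 and Zbtb16, 2 for Mt1 and 1 each for the others. The list was drawn up around Hsd11b1 with earlier results of these samples known, so the values of Hsd11b1 are given as a description with no test, and the question asked is whether the other genes moved with it.

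Total RNA came from abdominal fat pads of female mice on the C57BL/6 background, and each Affymetrix array held a pool of fat pads. The 4 groups of 3 pools were p47phox null mice on the high fat diet, wild type mice on the high fat diet, p47phox null mice on casein and wild type mice on casein. The diets were begun on postnatal day 28 and lasted 13 weeks. The null mice lack p47phox, the Ncf1 product that activates the phagocyte NADPH oxidase, and the labels name no cell type or promoter to which the loss is limited. How many animals made a pool is not given in the sources used here, so every p-value measures the spread between pools. Levels were lost because each probe set was centred on its median over the 12 arrays, so all values below are log2 differences from that median and can be compared between pools but not between genes. The number of arrays limits the precision.

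Ncf1 checked the genotype labels: for 2 of its 3 probe sets the 6 null pools lay below the 6 wild type ones, at -0.54 to -0.33 in null pools and 0.33 to 1.71 in wild type pools for the wider of them. Several pools stood apart in markers of other tissues. The median of 18 skeletal muscle markers reached 3.58 in pool 1 of the null high fat diet group and 4.54 in pool 2 of the wild type high fat diet group, and wild type casein pool 3 had a median of 4.64 for 13 liver markers and 2.84 for 9 adrenal markers. The next highest skeletal muscle medians were 2.69 in wild type casein pool 1 and 1.82 in null casein pool 1. The median of 18 reproductive tract markers ran from 0.10 to 0.77 in null and -0.88 to -0.76 in wild type pools on the high fat diet. On casein it ran from 0.06 to 0.15 in null pools and from -0.95 to 0.17 in wild type pools.

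In mice, corticosterone circulates as the active glucocorticoid and 11-dehydrocorticosterone as its inert form. Hsd11b1 sits in the endoplasmic reticulum and turns the inert form back into corticosterone, using NADPH that H6pd supplies there. Corticosterone then binds the glucocorticoid receptor, the product of Nr3c1, which moves to the nucleus and binds DNA at glucocorticoid response elements (GREs). Fkbp5, Tsc22d3, Zbtb16, Sgk1, Per1 and the metallothioneins Mt1 and Mt2 are classic targets whose transcription the receptor raises. In fat, local glucocorticoid favours adipocyte differentiation and the storage of lipid, and excess Hsd11b1 in adipocytes of transgenic mice causes visceral obesity.

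The promoters of Sgk1, Mt1 and Mt2, 3 of the 4 targets that stood higher in null pools, are shown because they hold a full GRE or several metal response element cores. The window of the other, Fkbp5, held no match to any motif searched. RefSeq windows of GRCm38.p6, from 250 bases before to 50 bases after each annotated start, were matched for 8 of the 10 genes, all but Nr3c1 and Zbtb16, in 16 windows. Both strands were searched for the palindromic GRE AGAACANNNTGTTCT, for its inner part ACANNNTGT and its 6-letter arm TGTTCT, both of which the full element contains, and for the metal response element core TGCACNC or TGCGCNC. The full GRE was found in 3 of 32851 promoter windows (0.01%), and 1 of these 3 was a window of Sgk1, where the match starts 189 bases before the annotated start. Sgk1 has 6 such windows and the other 5 hold no full GRE. The arm TGTTCT alone was in 18.97% of all windows and in windows of 3 of the 8 genes. That share counts windows and cannot be set against a count of genes, since a gene can have several windows. The inner part was in 6.85% of all windows, windows of Mt1 and Sgk1 among them. In the sequences below, all on the plus strand, capitals mark the full GRE in Sgk1 and the metal response element cores in Mt1 and Mt2.
Sgk1, chr10:21993640-21993939: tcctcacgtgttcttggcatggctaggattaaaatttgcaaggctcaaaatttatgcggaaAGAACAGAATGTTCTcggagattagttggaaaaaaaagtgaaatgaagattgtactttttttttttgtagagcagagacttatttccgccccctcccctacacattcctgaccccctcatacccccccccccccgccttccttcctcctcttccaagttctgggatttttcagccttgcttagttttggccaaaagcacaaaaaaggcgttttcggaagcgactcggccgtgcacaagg
Mt1, chr8:94178839-94179138: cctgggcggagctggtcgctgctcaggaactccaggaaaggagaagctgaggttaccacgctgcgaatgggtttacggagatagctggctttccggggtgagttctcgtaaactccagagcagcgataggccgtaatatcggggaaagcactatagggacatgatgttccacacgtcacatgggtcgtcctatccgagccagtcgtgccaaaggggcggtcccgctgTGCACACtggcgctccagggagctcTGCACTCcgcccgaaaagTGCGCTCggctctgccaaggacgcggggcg
Mt2, chr8:94172368-94172667: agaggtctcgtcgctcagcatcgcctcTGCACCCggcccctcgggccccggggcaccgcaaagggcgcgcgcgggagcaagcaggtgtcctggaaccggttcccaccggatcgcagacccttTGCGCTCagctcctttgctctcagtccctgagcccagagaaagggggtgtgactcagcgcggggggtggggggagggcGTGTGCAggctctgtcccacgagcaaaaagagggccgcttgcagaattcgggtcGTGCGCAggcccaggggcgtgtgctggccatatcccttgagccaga
The Mt1 window holds 3 metal response element cores and the Mt2 window 4, of which some lie on the minus strand. At least 1 core was in 25.7% of all promoter windows, at least 3 in 1.969% and at least 4 in 0.517%. The annotated starts of Mt1 and Mt2 lie 6.265 kb apart on chromosome 8. A match is a description of letters and does not show that the receptor or the metal-responsive factor was bound.

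Hsd11b1 was lower on the high fat diet than on casein in both genotypes. Its probe set read -1.40, -0.79 and -0.88 in the null pools fed the high fat diet, against 0.69, 1.04 and 1.48 in the null pools on casein. In wild type pools it read -0.49, -1.14 and -1.37 on the high fat diet and 0.49, 0.67 and 0.92 on casein. The 0.92 belongs to wild type casein pool 3, the pool with the liver marker median of 4.64. All 6 high fat diet pools, at -1.40 to -0.49, lay below all 6 casein pools, at 0.49 to 1.48. Over both genotypes 0.0769% of all genes lay lower in this way and 0.181% higher. The difference was -2.09 ± 0.26 (SE, n = 3 pools a group), a 4.27-fold lower signal, in null pools and -1.69 ± 0.26, 3.22-fold lower, in wild type pools. Leaving out any 1 pool kept that of Hsd11b1 between -2.28 and -1.89 in null pools and between -1.94 and -1.50 in wild type pools. Its absolute change stood at the 99.96th percentile of all genes in null pools and at the 99.73rd in wild type pools. Of the 18194 genes 0% passed an adjusted p of 0.05 in limma in either diet comparison, and 4% in null pools and 7.61% in wild type pools had an unadjusted p under 0.05. In bulk fat, fewer cells that express a gene and less RNA per cell cannot be told apart. The median of 19 mature adipocyte markers stood beside it at -0.55 to -0.06 on the high fat diet and -0.15 to 0.06 on casein in null pools, and at 0.17 to 0.19 and 0.00 to 0.39 in wild type pools. Hsd11b1 differed between genotypes by -0.03 ± 0.26 on the high fat diet and 0.38 ± 0.26 on casein, and its groups overlapped on both diets. After a further quantile normalization the difference between genotypes on the high fat diet was -1.03 and the cause was not tested.

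**Figure D1:**
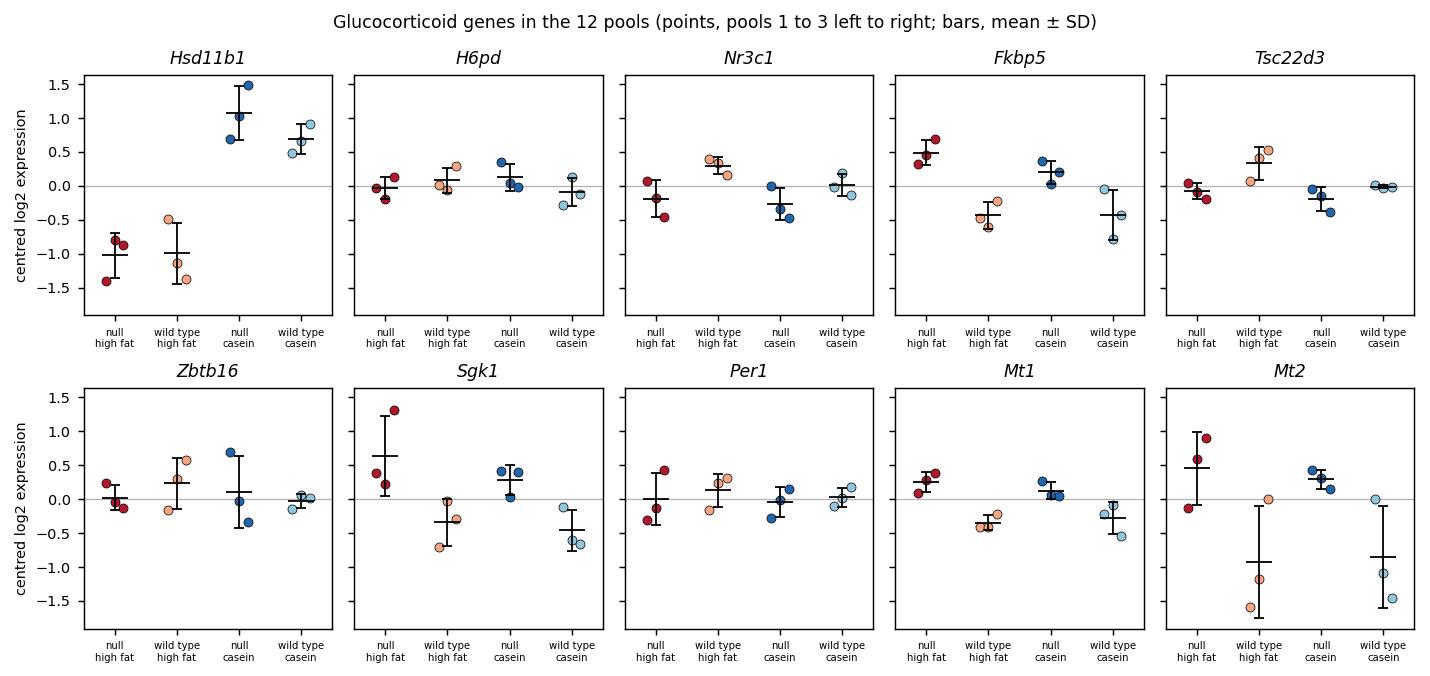
Centred log2 expression of the 10 genes (mean of their probe sets) in each pool, with points for pools 1 to 3 and bars for the mean ± SD of each group. Hsd11b1 separates the 6 high fat diet pools from the 6 casein pools, whereas Fkbp5, Sgk1 and Mt1 separate the 6 null pools from the 6 wild type pools.

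H6pd, the supplier of NADPH for the Hsd11b1 reaction, did not pass in any comparison. It read -0.03, -0.20 and 0.14 in null pools fed the high fat diet and 0.36, 0.04 and -0.02 in null pools on casein, a difference of -0.16 ± 0.14 (SE; adjusted p = 0.9996). In wild type pools it read 0.02, -0.05 and 0.29 on the high fat diet against -0.29, 0.13 and -0.11 on casein, a difference of 0.18 ± 0.14 (adjusted p = 0.776). The 95% intervals, -0.48 to 0.16 in null pools and -0.14 to 0.50 in wild type pools, do not reach the differences of Hsd11b1. Its groups overlapped in all 4 comparisons of diet and genotype.

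No target passed the test as lower on the high fat diet, where Hsd11b1 was lower. Of the 7 targets and the receptor, 0 passed in either direction in either genotype, as did 0% of all genes. The differences of the targets and the receptor in null pools ran from -0.09 for Zbtb16 to 0.36 for Sgk1. In wild type pools they ran from -0.07 for Mt2 to 0.35 for Tsc22d3. The median over all 10 members was 0.10 in null pools and 0.11 in wild type pools, beside 0.00 over all genes in both. Fkbp5, a co-chaperone that damps the receptor, differed by 0.29 ± 0.18 (95% interval -0.11 to 0.69; adjusted p = 0.9996) in null pools and by -0.01 ± 0.18 (-0.41 to 0.39; adjusted p = 0.99) in wild type pools. The lowest bound of any of these intervals was -0.83 in null pools and -1.06 in wild type pools, both of Mt2.

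Tsc22d3, which encodes the anti-inflammatory leucine zipper protein GILZ, had the largest positive difference with the diet in wild type pools. The mean of its 4 probe sets read 0.06, 0.41 and 0.53 in wild type pools on the high fat diet and 0.02, -0.04 and -0.02 on casein, so these groups did not overlap. The difference was 0.35 ± 0.13 (adjusted p = 0.621), and groups without overlap made up 11.9% of all genes, 7.07% higher and 4.86% lower on the high fat diet. In null pools Tsc22d3 read 0.04, -0.08 and -0.19 on the high fat diet against -0.05, -0.15 and -0.39 on casein, a difference of 0.12 ± 0.13 (adjusted p = 0.9996) with overlap. In null pools 0 of the 9 genes other than Hsd11b1 were without overlap, where 10.6% of all genes were, 4.89% higher and 5.7% lower. The median of 18 macrophage markers was -0.05, 0.30 and 0.59 in pools 1, 2 and 3 of the wild type high fat diet group, in the same order as Tsc22d3. That of 14 endothelial markers, at 0.23, 0.27 and 0.59, had this order there too. In the other groups the macrophage median did not have the order of Tsc22d3. In wild type casein pools 1, 2 and 3 it was -0.21, 0.02 and -0.09, the reverse order. The endothelial median had the order of Tsc22d3 in both null groups too. It was -0.01, -0.09 and -0.24 in null high fat diet pools 1, 2 and 3, and 0.07, -0.03 and -0.20 in null casein pools. In wild type casein pools the endothelial median was -0.13, 0.30 and -0.05, the reverse order. The part of these cells in the result was not tested. Zbtb16, the zinc finger factor PLZF, and Per1, a clock gene that glucocorticoid can induce, overlapped between diets in both genotypes.

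**Figure D2:**
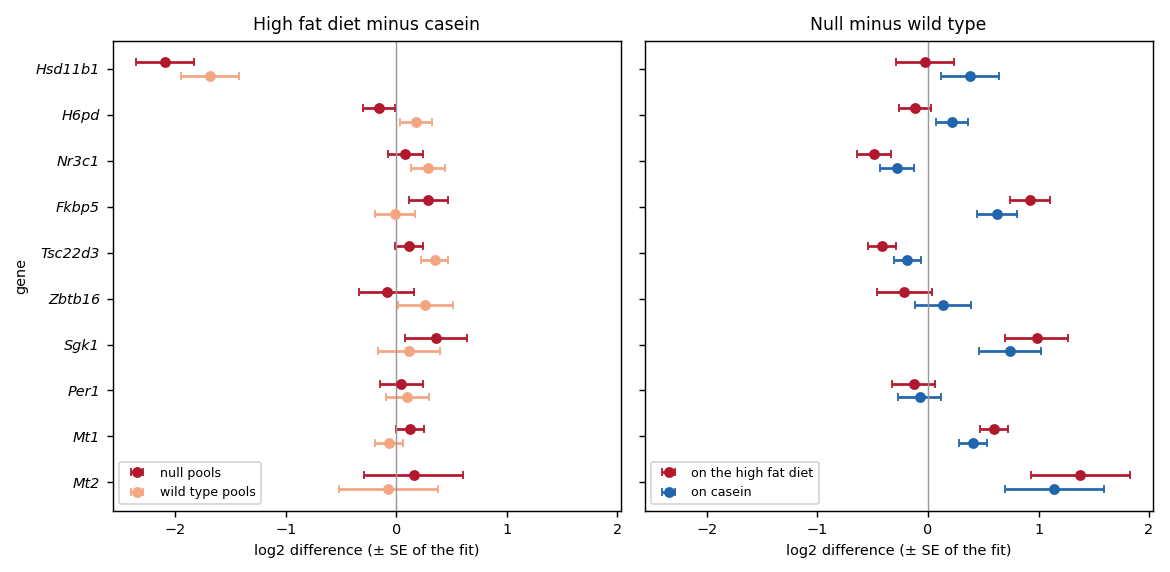
Log2 differences of the 10 genes between diets in each genotype (left) and between genotypes on each diet (right), with bars for the SE of the limma fit. Hsd11b1 lies at -2.09 and -1.69 on the left while the other genes lie between -0.16 and 0.36, and on the right Fkbp5, Sgk1, Mt1 and Mt2 lie above 0 on both diets.

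On the high fat diet Fkbp5 and Mt1 rose in null pools, 2 of the 9 genes other than Hsd11b1 higher and 0 lower, where 5.92% of all genes passed in limma, 3.21% higher and 2.71% lower, and 24.9% had an unadjusted p under 0.05. The groups did not overlap for 5 of the 9, against 32.2% of all genes. Of these, 3 were higher and 2 lower in null pools, against 14.9% and 17.3% of all genes. The median difference over the members was -0.07, beside -0.03 over all genes.

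Fkbp5 read 0.33, 0.46 and 0.69 in null pools fed the high fat diet, against -0.47, -0.61 and -0.22 in wild type pools on that diet. Every null pool lay above every wild type pool. The rise was 0.93 ± 0.18 (SE; limma adjusted p = 0.0261), or 1.9-fold. Probe set 1416125_at carried most of it, at 0.63, 0.63 and 1.43 in null pools and -1.54, -1.56 and -0.96 in wild type pools, a difference of 2.25 ± 0.38. Probe set 1448231_at differed by 0.73 ± 0.17, while 1447736_at, whose whole span over the 12 arrays was 0.46, differed by -0.19 ± 0.08 in the other direction.

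Mt1, a metal-binding protein that glucocorticoid and zinc both induce, read 0.09, 0.28 and 0.38 in null pools fed the high fat diet and -0.42, -0.40 and -0.22 in wild type pools. The groups did not overlap. The rise was 0.60 ± 0.13 (adjusted p = 0.0301), or 1.51-fold. Its probe sets disagreed in size: 1422557_s_at differed by 1.10 ± 0.18 and 1451612_at by 0.10 ± 0.14 (adjusted p = 0.729 when each probe set was tested by itself). Mt2, its neighbour, read -0.14, 0.59 and 0.91 in null pools and -1.59, -1.17 and 0.0041 in wild type pools. The null and wild type pools of Mt2 overlapped, since wild type pool 3 lay above null pool 1, and the difference of 1.37 ± 0.45 did not pass (adjusted p = 0.0905).

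Sgk1, a kinase that raises sodium transport and acts beside Akt, read 0.38, 0.22 and 1.31 in null pools fed the high fat diet, with null pool 3 the highest of all 12, and -0.71, -0.03 and -0.29 in wild type pools. The groups did not overlap, and the difference of 0.98 ± 0.28 fell short of the threshold (adjusted p = 0.0641). Nr3c1, the receptor, went the other way: it read 0.08, -0.18 and -0.46 in null pools and 0.39, 0.34 and 0.16 in wild type pools, without overlap, a difference of -0.49 ± 0.16 (adjusted p = 0.0857). On leaving out pool 1 of the null high fat diet group it was -0.62 (adjusted p = 0.0399). All 6 probe sets of Nr3c1 were lower in null pools, by -0.70 to -0.16. Tsc22d3 also stood lower in null pools, at 0.04, -0.08 and -0.19 against 0.06, 0.41 and 0.53 in wild type pools, and the difference was -0.41 ± 0.13 (adjusted p = 0.0739), negative in all 4 probe sets. With array weights estimated gene by gene, an alternative added after seeing the data, Nr3c1, Tsc22d3 and Mt2 passed (adjusted p = 0.0265, 0.0247 and 0.0245). The differences of H6pd, Zbtb16 and Per1 ran from -0.21 to -0.12, with overlap.

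When any 1 pool was left out the difference stayed between 0.83 and 1.03 for Fkbp5 and between 0.53 and 0.68 for Mt1, while the adjusted p exceeded 0.05 for 5 of the 12 pools. The adjusted p of Fkbp5 was 0.0901 and 0.108 on leaving out null high fat diet pool 2 or 3 and 0.0663, 0.07 and 0.0664 on leaving out wild type high fat diet pool 1, 2 or 3. That of Mt1 was 0.103 and 0.121, and 0.0805, 0.0797 and 0.0747, without the same pools. With the reproductive tract median as a covariate Fkbp5 stood at 0.17 (adjusted p = 0.9996), Mt1 at 0.45 (adjusted p = 0.976) and Mt2 at -0.28, in a fit where that median separates the genotypes on this diet and cannot be told apart from them. Over its alternatives the adjusted p ran from 0.000879 to 0.9996 for Fkbp5 and from 0.000984 to 0.976 for Mt1, the lowest with array weights whose estimate had not converged.

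**Figure D3:**
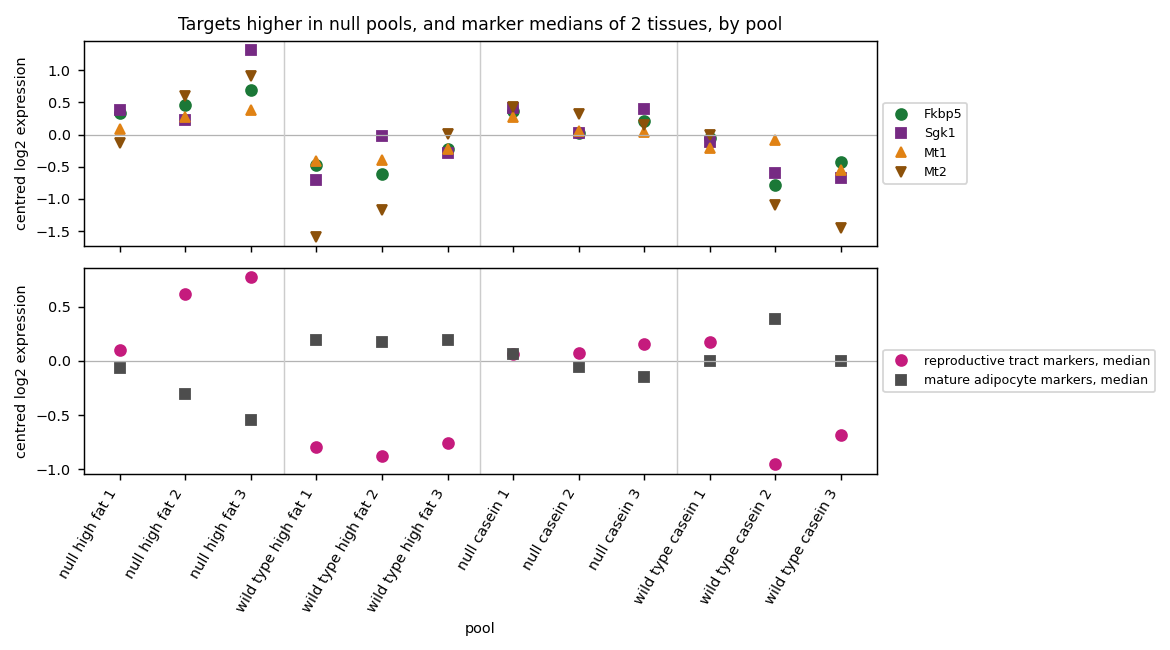
Centred log2 expression by pool of Fkbp5, Sgk1, Mt1 and Mt2 (top) and of the medians of reproductive tract and mature adipocyte markers (bottom). The reproductive tract median is at or above 0.06 in the 6 null pools and in wild type casein pool 1, where Fkbp5 is at -0.05, and at or below -0.68 in the other 5 wild type pools.

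On casein Fkbp5, Sgk1, Mt1 and Mt2 also stood higher in null pools, but 0 of the 9 genes other than Hsd11b1 passed, as did 0% of all genes (8.12% had an unadjusted p under 0.05). Fkbp5 read 0.37, 0.02 and 0.21 in null pools on casein against -0.05, -0.79 and -0.43 in wild type pools on casein, a difference of 0.62 ± 0.18 (adjusted p = 0.542). Sgk1 read 0.41, 0.03 and 0.40 in null pools and -0.11, -0.60 and -0.67 in wild type pools, a difference of 0.74 ± 0.28 (adjusted p = 0.574). Mt1 differed by 0.41 ± 0.13 and Mt2 by 1.14 ± 0.45, with Mt2 at 0.43, 0.31 and 0.15 in null pools and -0.0041, -1.09 and -1.45 in wild type pools. The null and wild type pools did not overlap for 5 of these 9 on casein, these 4 targets and Tsc22d3, which differed by -0.19 ± 0.13, against 12% of all genes. The share of all genes was 5.4% higher and 6.57% lower in null pools. Over both diets the 6 null pools lay above the 6 wild type pools for Fkbp5 (0.02 to 0.69 against -0.79 to -0.05), Sgk1 (0.03 to 1.31 against -0.71 to -0.03) and Mt1 (0.04 to 0.38 against -0.55 to -0.09), as they did for 1.27% of all genes, while 1.8% lay below.

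Wild type casein pool 1 was the wild type pool nearest the null pools in Fkbp5, Sgk1 and Mt2 on casein, whereas in Mt1 it was wild type casein pool 2, at -0.09 against -0.21 in pool 1. The reproductive tract median of wild type casein pool 1 was 0.17, while those of wild type casein pools 2 and 3 were -0.95 and -0.68. Its skeletal muscle median was 2.69, against -0.37 and 0.38 in wild type casein pools 2 and 3. On the high fat diet, null pool 3 was highest of the null pools in Fkbp5, Sgk1, Mt1 and Mt2, and its medians were 0.77 for reproductive tract and -0.55 for mature adipocyte markers, the extremes of the 12 pools for both lists. Of the 18 reproductive tract markers 8 rose in null pools fed the high fat diet and 0 fell, and of the 19 mature adipocyte markers 6 fell and 0 rose, where 3.21% of all genes rose and 2.71% fell. The part of these tissues in the rise of the targets was not tested beyond the covariate fit.

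The change with diet was compared between the genotypes by the interaction, in which the wild type difference between diets is subtracted from the null one. It was -0.41 ± 0.37 for Hsd11b1, and -1.78 ± 0.69 after the further quantile normalization. Among the 9 other genes it ran from -0.35 to 0.30, 0 passed (smallest adjusted p = 0.792), and 0% of all genes passed (6.12% had an unadjusted p under 0.05).

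Whether the other genes followed Hsd11b1 from pool to pool was asked with the group means removed, since Hsd11b1 splits the 12 pools by diet and raw values would carry that split. Of the 9 genes, 8 had a negative correlation with Hsd11b1 and 1 passed, Tsc22d3, in the direction opposite to a target that follows the enzyme. With group means removed, this correlation was computed for the 9 genes only. The share of all genes with such values is therefore not known, and the counts cannot be called particular to these genes. Over the 12 pools Tsc22d3 had a Pearson r of -0.92 with Hsd11b1 (two-sided exact permutation within groups, p = 0.00386, adjusted over 9 genes p = 0.0347) and a Spearman rho of -0.90 (exact p = 0.0054, adjusted p = 0.0486). Zbtb16 had r = -0.83 (exact p = 0.0147, adjusted p = 0.066) and rho = -0.79 (exact p = 0.0293). Fkbp5 had r = -0.16 (exact p = 0.61), rho = -0.17 (exact p = 0.64), and Per1, the only positive one, r = 0.20 (exact p = 0.599) and rho = 0.28 (exact p = 0.481). The r of H6pd, Nr3c1, Sgk1, Mt1 and Mt2 lay between -0.43 and -0.23 (adjusted exact p of 0.447 or more).

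The r of Tsc22d3 stayed between -0.95 and -0.87 when any 1 pool was left out. The 2 pools farthest from the median of Hsd11b1, taken on deviations from the group means, were then left out. The r of Tsc22d3 was -0.78 without them (exact permutation p = 0.0625, adjusted p = 0.484). Without the 3 pools with the highest muscle, liver or adrenal medians it was -0.96 (exact permutation p = 0.0625, adjusted p = 0.281). The adjusted p lay at 0.104 to 0.146 when null high fat diet pool 1, any wild type high fat diet pool or any null casein pool was left out, with r of -0.92 to -0.87 there and 432 permutations in place of 1296. After quantile normalization r was -0.59 (exact permutation p = 0.00617, adjusted p = 0.0556). Within the 6 high fat diet pools r was -0.53 (exact permutation p = 0.292) and within the 6 casein pools -0.93 (exact permutation p = 0.00972, adjusted p = 0.0875). Zbtb16 had r = -0.86 within the 6 high fat diet pools (exact permutation p = 0.0347, adjusted p = 0.312), and 0 of the 9 genes passed there.

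**Figure D4:**
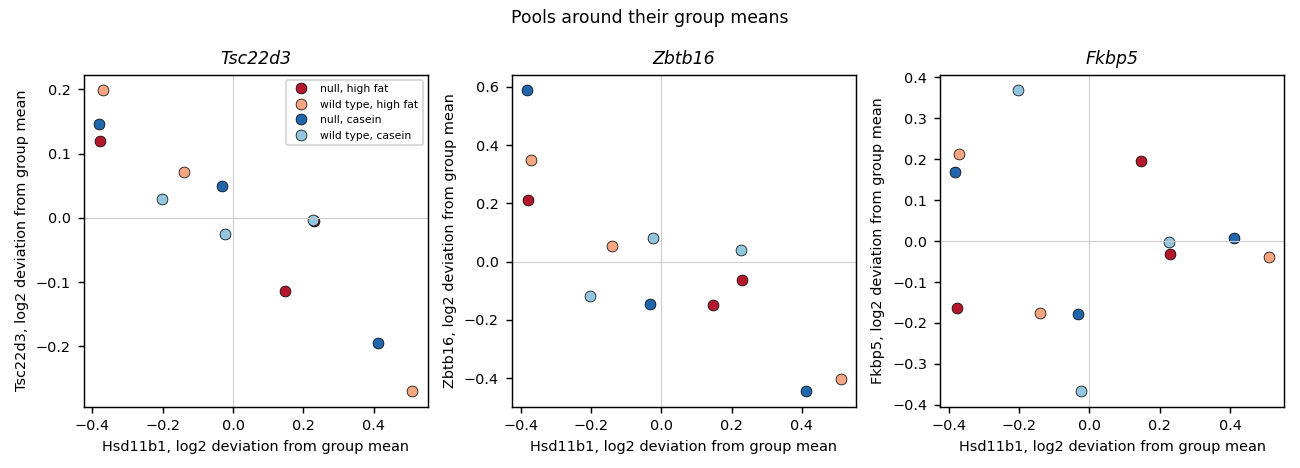
Deviation of each pool from its group mean for Tsc22d3, Zbtb16 and Fkbp5 (vertical, log2) against that of Hsd11b1 (horizontal, log2), coloured by group. Tsc22d3 and Zbtb16 run downward with r of -0.92 and -0.83, and Fkbp5 shows no slope, with r of -0.16.

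Among themselves the 9 other genes gave 36 pairs, a comparison added after seeing the data. After adjustment 0 passed and 2 had an unadjusted exact permutation p under 0.05: Nr3c1 with Per1 (r = -0.85, rho = -0.87, exact p = 0.00772, adjusted p = 0.236) and Tsc22d3 with Zbtb16 (r = 0.87, rho = 0.82, exact p = 0.0131, adjusted p = 0.236). Mt1 and Mt2 had r = 0.66 and rho = 0.62 (exact permutation p = 0.0733), Fkbp5 and Mt2 r = 0.71 (exact permutation p = 0.0563), and Fkbp5 and Sgk1 r = 0.54 (exact permutation p = 0.1). With the smallest p that 1296 permutations can give at 0.000772, a pair could have passed. The 2 pools farthest from the median of the first gene, again on deviations from the group means, were also left out. The r was then -0.75 for Nr3c1 with Per1 (exact permutation p = 0.104) and 0.70 for Tsc22d3 with Zbtb16 (exact permutation p = 0.0833).

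Other genes of the pathway were read from 3 lists. Of 30 further glucocorticoid targets, 2 rose and 2 fell in null pools fed the high fat diet, with a median of -0.24 beside -0.03 over all genes, of which 3.21% rose and 2.71% fell. Rgs2, a brake on G protein signalling, read 0.27, 0.49 and 0.64 in null pools fed the high fat diet and -0.92, -1.25 and -1.67 in wild type pools on that diet. It rose by 1.75 ± 0.23 (SE; adjusted p = 0.0121). Fam107a rose by 0.94 ± 0.24 (adjusted p = 0.0486). Dusp1, the phosphatase that switches off stress kinases, read -0.41, -0.48 and -0.39 in null pools and 0.12, 0.44 and 0.67 in wild type pools. It fell by 0.84 ± 0.18 (adjusted p = 0.0316). Anxa1, an anti-inflammatory phospholipid-binding protein, fell by 0.67 ± 0.13 (adjusted p = 0.025). When any 1 pool was left out the difference stayed between 1.55 and 1.93 for Rgs2, 0.76 and 1.11 for Fam107a, -0.98 and -0.71 for Dusp1, and -0.75 and -0.52 for Anxa1. Without null high fat diet pool 2 or 3, the adjusted p was 0.0635 and 0.0697 for Rgs2, 0.127 and 0.179 for Fam107a, 0.106 and 0.112 for Dusp1, and 0.0891 and 0.0994 for Anxa1. Leaving out wild type high fat diet pool 1, 2 or 3 ended the call of Fam107a (adjusted p = 0.134, 0.105 and 0.0951), as did leaving out null casein pool 2 or 3 (0.0703 and 0.0628). That of Dusp1 was lost on leaving out wild type high fat diet pool 2 or 3 (0.0788 and 0.102) or null casein pool 2 (0.0523), and that of Anxa1 on leaving out wild type high fat diet pool 1 or 3 (0.0513 and 0.0746). Over the alternatives the adjusted p ran from 0.000346 to 0.91 for Rgs2, from 0.00252 to 0.9996 for Fam107a, from 0.00113 to 0.976 for Dusp1 and from 0.0015 to 0.947 for Anxa1.

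In the diet comparisons 0 of the 30 further targets passed in either genotype, as did 0% of all genes. The list had medians of -0.07 in null pools and 0.04 in wild type pools. The smallest p in null pools belonged to Glul, glutamine synthetase, at -0.39 ± 0.14, Cdkn1c at -0.63 ± 0.29 and Arrdc2 at 0.19 ± 0.09 (all adjusted p = 0.9996). In wild type pools it belonged to Rgs2 at -1.15 ± 0.23 (adjusted p = 0.317), Cdkn1a, a cell cycle inhibitor, at 0.78 ± 0.24 (adjusted p = 0.55) and Irs2, an insulin receptor substrate, at 1.04 ± 0.34 (adjusted p = 0.573). Between genotypes on casein 0 of 30 passed, as did 0% of all genes. Dusp1 stood at -0.76 ± 0.18 (adjusted p = 0.451), Klf15 at -0.62 ± 0.18 and Lpin1 at -0.28 ± 0.10.

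Of 17 measured chaperones and coregulators of the receptor 0 passed in any comparison. Of all genes 5.92% passed between genotypes on the high fat diet and 0% in each other comparison. On the high fat diet Fkbp4, the co-chaperone that helps the receptor to the nucleus, differed between null and wild type pools by 0.37 ± 0.10 (adjusted p = 0.0629), the acetyltransferase Crebbp by 0.24 ± 0.07 (adjusted p = 0.0693) and its relative Ep300 by 0.29 ± 0.12 (adjusted p = 0.18). In null pools Crebbp differed between diets by 0.22 ± 0.07, Dnajb1 by 0.18 ± 0.07 and Smarca4 by 0.14 ± 0.09, and in wild type pools Fkbp4 by -0.17 ± 0.10, Med1 by -0.10 ± 0.07 and Smarca4 by -0.10 ± 0.09. On casein the genotypes differed by 0.21 ± 0.13 for Stip1, 0.19 ± 0.13 for Nrip1 and -0.09 ± 0.07 for Dnajb1.

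Of 16 measured genes of corticosteroid handling and NADPH supply to the endoplasmic reticulum 0 passed in any comparison. The share of all genes was 5.92% between genotypes on the high fat diet and 0% elsewhere. Mc2r, the corticotropin receptor that adrenal cells and mouse adipocytes carry, read -0.43, -0.92 and -1.46 in null pools fed the high fat diet and 0.08, 0.25 and 0.82 in wild type pools on that diet, without overlap, a difference of -1.32 ± 0.36 (adjusted p = 0.0586). Nr3c2, the mineralocorticoid receptor, which also binds corticosterone, differed by -0.46 ± 0.14 (adjusted p = 0.0767). Slc37a4, which carries glucose 6-phosphate to H6pd, differed by -0.38 ± 0.13 (adjusted p = 0.106) on the high fat diet and by -0.31 ± 0.13 (adjusted p = 0.592) on casein. With the diet in null pools Slc37a4 differed by -0.24 ± 0.13, Mc2r by -0.57 ± 0.36 and Pgd by -0.29 ± 0.20, and in wild type pools G6pc3 by -0.23 ± 0.09, Star by -2.64 ± 1.26 and Srd5a3 by 0.16 ± 0.08. Star, the carrier of cholesterol for steroid synthesis, stood at 4.30 in wild type casein pool 3, the pool with the adrenal median of 2.84, so the difference of Star with the diet in wild type pools, like those between genotypes on casein of Serpina6 (-1.52 ± 0.87, with 4.16 in that pool) and Mc2r (-0.93 ± 0.36, with 1.37 there), included a pool with adrenal and liver markers. Without that pool Star differed by -0.72 ± 0.50, Serpina6 by -0.12 ± 0.18 and Mc2r by -0.53 ± 0.31. On the high fat diet Mc2r passed on leaving out pool 1 of the null high fat diet group (adjusted p = 0.0388) or wild type casein pool 1 or 3 (0.0445 and 0.0332), Nr3c2 without null high fat diet pool 1 (0.0391), Slc37a4 without wild type casein pool 1 (0.0462), Fkbp4 without null casein pool 1 (0.0421) and Ep300 without null high fat diet pool 1 (0.0478).

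The genes whose pattern over the 12 pools was most like that of Hsd11b1 were Als2cl (Pearson r = 0.91), Kcnj15, a potassium channel (0.90), Slc15a5, of the peptide transporter family (0.89), Slc19a1, the reduced folate carrier (0.87), and Qsox1, a sulfhydryl oxidase (0.85). This likeness is a description of the 5 highest values among all genes and follows the split by diet. Als2cl, Slc15a5, Slc19a1 and Qsox1 were lower in all 6 high fat diet pools than in all 6 casein pools, and Kcnj15 overlapped between diets in wild type pools. Slc15a5 had the widest difference among them: it averaged -0.36 in null pools fed the high fat diet against 0.86 in null pools on casein, and -0.43 in wild type pools on the high fat diet against 0.93 in wild type pools on casein. Its difference was -1.23 ± 0.28 in null pools (limma adjusted p = 0.9996) and -1.36 ± 0.28 in wild type pools (adjusted p = 0.317), and 0 of the other 9 members were among the 5.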

How the data were processed

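Per the labels, total RNA from pooled fat pads (8 µg) was biotin-labelled and hybridised to Affymetrix arrays. The submitters' processing notes name GCOS and RMA, whose versions are not given in the sources used here. The deposited values were read as log2 values, the scale of RMA, since no label gives the base. Each probe set of the deposited table has a median of 0 across arrays (0 of 45101 depart by more than 1e-06), so all had been centred and signal over background is lost.

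The platform table gave 1 gene for 34958 probe sets, several for 932 and none for 9211. The last 2 kinds were left out. RefSeq (GRCm38.p6) named 34754 of the 34958 by gene identifier. A gene's value is the mean of its probe sets (18194 genes). Genes were fitted with limma 3.58.1 in R 4.3.3, with 4 group means and 8 residual degrees of freedom, and p-values were adjusted over all genes (Benjamini-Hochberg, threshold 0.05). The tests were checked on simulated data. All members were named in every comparison. From each further list up to 6 called genes, or the 3 with the smallest p, were named, as were the 5 genes most like Hsd11b1. The members and lists were chosen with earlier results of these data known. Alternatives changed the probe set rule, filter, normalization, weights, variance model, block, covariate and pools. No 2 arrays held like values (largest absolute correlation 0.63).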

Additional observations from a re-analysis of the deposited data

Results flagged for a closer look

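Rgs2, from the list of further glucocorticoid targets, differed with the diet in opposite directions in the genotypes. In null pools all 3 high fat diet pools (0.27, 0.49 and 0.64) lay above all 3 casein pools (-0.08, 0.06 and 0.07), a difference of 0.45 ± 0.23 (SE; limma adjusted p = 0.9996). In wild type pools all 3 high fat diet pools (-0.92, -1.25 and -1.67) lay below all 3 casein pools (-0.09, -0.63 and 0.31), a difference of -1.15 ± 0.23 (adjusted p = 0.317). The interaction for Rgs2 was 1.60 ± 0.33 and did not pass (adjusted p = 0.789), so the difference between the genotypes in the response to diet was not shown. Groups without overlap between diets made up 10.6% of all genes in null pools and 11.9% in wild type pools.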

How the results depend on the processing

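Of the genotype comparison on the high fat diet, where 1077 genes changed, 655 did after a further quantile normalization, 542 with a replicate block, 440 without the 3 pools that stand apart in muscle, liver or adrenal markers, 0 with the reproductive tract covariate, 1634 with each probe set by itself, 5120 with limma's array weights and 2991 with weights estimated gene by gene. The estimate behind the 5120 stopped before it converged, so the gene-by-gene weights were added after seeing the data. The other counts were 0: the diet comparison in null pools gave 942 genes with the unconverged weights, 1 with the gene-by-gene weights and 1 with a trended, robust variance, that in wild type pools 1 without the 3 pools, and the genotype comparison on casein 1 after quantile normalization. Leaving out 1 pool gave 0 to 1617 genes for the genotype comparison on the high fat diet (0 without null high fat diet pool 2 or 3, 32 on leaving out wild type high fat diet pool 3), 0 to 1 for the diet in null pools, 0 to 15 for the diet in wild type pools, 0 to 46 for the genotype on casein, 0 to 10 for the interaction and 0 to 2 for the genes correlated with Hsd11b1. That last count was 1, with 1 by Spearman's rho, 2 with the probe set of widest span, and 0 over the 12 raw values, within 6 high fat diet or 6 casein pools, after quantile normalization, without the 2 farthest pools and without the 3 pools. The pairs gave 0 in each. The further quantile normalization moved Hsd11b1 to -3.22 for the diet in null pools, -1.03 between genotypes on the high fat diet and -1.78 for the interaction.

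The pool numbers showed no pairing across all groups (r of -0.61 to 0.59 between pools of 1 number, above 0.1 in 3 of 18 pairs). These 3 joined the diets within a genotype, at 0.55 and 0.59 for null pools 1 and 3 and 0.30 for wild type pool 3. Pools of unlike number were not compared, so pairing within a genotype was not settled. With the pool numbers as a replicate block the limma adjusted p was 0.0553 for Mt1, 0.0534 for Dusp1 and 0.0729 for Fam107a. Without the 3 pools Fkbp5 stood at 0.92 (adjusted p = 0.0734) on the high fat diet, and with the filter on narrow probe sets Sgk1 passed (adjusted p = 0.0456). Both kinds of array weights brought Nr3c1, Tsc22d3 and Mt2 past the threshold on that diet, with adjusted p of 0.0265, 0.0247 and 0.0245 by the gene-by-gene weights.

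Differences that changed sign were mostly near 0 and uncalled. For the diet in null pools Nr3c1 was -0.10 by probe set 1457635_s_at and -0.0496 without the 3 pools, Tsc22d3 -0.18 by 1444365_at, Zbtb16 0.033 with the covariate, Per1 -0.031 after quantile normalization, -0.091 with the unconverged and -0.055 with the gene-by-gene weights, and -0.0098 with the covariate, Mt1 -0.038 by 1451612_at, and Mt2 -0.013 after quantile normalization and -0.34 with the covariate. For the diet in wild type pools Fkbp5 was 0.19 by 1447736_at, 0.16 by 1448231_at, 0.019 after quantile normalization, 0.073 without the 3 pools and 0.18 with the covariate, Sgk1 -0.15 without the 3 pools, Mt1 0.15 by 1451612_at and 0.0205 after quantile normalization, and Mt2 0.016 after quantile normalization, 0.029 with the gene-by-gene weights and 0.34 with the covariate. Between genotypes on the high fat diet H6pd was 0.15, Zbtb16 0.18, Mt2 -0.28, Fam107a -0.052 and Slc37a4 0.094 with the covariate, Fkbp5 -0.19 by 1447736_at, and Per1 0.076 without the 3 pools. On casein Nr3c1 was 0.13 by 1457635_s_at, Fkbp5 -0.12 by 1447736_at and Nrip1 -0.27 by its widest probe set. Leaving out 1 pool gave, for the diet in null pools, Nr3c1 at -0.0496 to 0.22, Zbtb16 at -0.31 to 0.21, Per1 at -0.17 to 0.20 and Mt2 at -0.067 to 0.46. For the diet in wild type pools it gave Fkbp5 at -0.20 to 0.17, Sgk1 at -0.041 to 0.30, Mt1 at -0.20 to 0.034 and Mt2 at -0.53 to 0.35. Between genotypes Per1 lay at -0.35 to 0.022 on the high fat diet and at -0.18 to 0.0402 on casein, and Zbtb16 at -0.16 to 0.36 on casein. Of 954 alternative values for the members, 881 kept direction and side of the threshold or, for Hsd11b1, which had no test, moved by less than the spread. Of the others 46 changed sign, 15 were no longer past the threshold, 9 came past it and 3 of Hsd11b1 moved by more than the spread. Between diets, and between genotypes on casein, 0 members passed in the main fit, so those values had no call to lose. The cause was not tested where a result changed. Signal over background is lost in the deposited values, and the number of arrays limits the precision.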
